A study of Rattus norvegicus with 16 samples.

Results

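Of the 31038 genes in the deposited tables, 39 were taken by name as the immediate-early and acute stress response genes, and they were followed in Schwann cells and in whole nerve of the rat sciatic nerve. They comprised 4 Fos and 3 Jun family genes, 3 other bZIP factors, 3 Egr, 3 Nr4a and 3 Klf factors, 5 other nuclear proteins, 9 feedback regulators, 3 stress and growth arrest genes and 3 effectors. RNA was sequenced in 16 libraries, 2 in each of 8 groups: Schwann cells and whole nerve, each from uncrushed nerves and from nerves taken days 3, 5 and 7 after the nerve was crushed, with surgery at postnatal day 18. Each library pooled at least 10 nerves, the crushed nerves gave only the stretch distal to the injury, and uncrushed nerves gave the matching stretch, without a sham operation. The labels give postnatal day 18, the day of surgery, as the age in every group and no separate age at collection. Crushed nerves were taken days after surgery, so days after crush and days of postnatal age cannot be told apart. The Schwann cells were released with enzymes, depleted on dishes against CD45 and Thy1 and caught on a dish against O4, an antigen of the Schwann cell surface, before RNA was taken. Whole nerve was lysed intact and its RNA was taken with another kit. Dissociation, panning, the mix of cells and the RNA kit therefore changed together between the tissues and cannot be told apart in these libraries. The study anticipated no significant change of expression during purification apart from immediate early genes. It reports that a comparison of whole nerve with dissociated, unpanned nerve bore this out. That dissociated nerve was not analysed here.

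Immediate-early genes are transcribed within minutes of a stimulus from factors already present in the cell, without new protein synthesis. Their products are mostly transcription factors of the AP-1, Egr, Nr4a and Klf families, together with proteins such as Zfp36, Dusp1, Socs3 and Nfkbia that shut the same signals off. They respond to growth factors, cytokines and injury, and they are also known to rise in cells while a tissue is digested with enzymes, so that a level in dissociated cells may come from either. In the injured nerve Jun and Atf3 are known for a second role, as lasting factors of the Schwann cell response.

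Upstream sequence of 28 of the 39 genes was found in the RefSeq promoter table of the assembly GRCr8, and the 250 bases before each start were searched for 4 motifs as they read along the strand of the gene. The first 2 read alike on both strands, the third was searched in both of its readings and the last on the gene's strand only. A gene counted as a match where any of its promoters matched, while the shares of all are per promoter. The CArG box, bound by serum response factor, was found upstream of Zfp36, Klf6 and Egr1 and of 1.5% of all 33469 promoters in the table. The cyclic AMP response element, TGACGTCA, was found in 6 (Btg2, Dusp1, Ier2, Jund, Maff and Ppp1r15a) and in 1.59% of all. The AP-1 site, TGACTCA or TGAGTCA, was found in 1 (Tnfaip3) and in 4.05% of all, and TATAAA in 5 (Gadd45g, Ier5, Junb, Ppp1r15a and Sgk1) and in 8.06% of all. A pair sharing the CArG box and a pair sharing the cyclic AMP response element are shown, because the RNA of the pair took different courses after crush in Schwann cells. Capitals mark the motif, the strand is that of the gene, and a match is a description of the letters and not a site of binding.
Zfp36, GRCr8 chr1:92799109-92799358, minus strand: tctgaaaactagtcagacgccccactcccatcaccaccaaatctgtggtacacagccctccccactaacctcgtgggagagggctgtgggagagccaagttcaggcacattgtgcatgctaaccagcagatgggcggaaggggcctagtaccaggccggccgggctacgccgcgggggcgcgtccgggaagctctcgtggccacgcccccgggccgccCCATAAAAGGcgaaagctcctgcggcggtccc
Klf6, GRCr8 chr17:69458479-69458728, minus strand: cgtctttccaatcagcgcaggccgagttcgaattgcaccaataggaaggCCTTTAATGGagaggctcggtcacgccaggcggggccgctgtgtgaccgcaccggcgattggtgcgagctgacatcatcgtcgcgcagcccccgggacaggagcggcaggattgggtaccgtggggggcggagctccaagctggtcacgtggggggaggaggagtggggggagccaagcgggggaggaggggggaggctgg
Btg2, GRCr8 chr13:48087691-48087940, minus strand: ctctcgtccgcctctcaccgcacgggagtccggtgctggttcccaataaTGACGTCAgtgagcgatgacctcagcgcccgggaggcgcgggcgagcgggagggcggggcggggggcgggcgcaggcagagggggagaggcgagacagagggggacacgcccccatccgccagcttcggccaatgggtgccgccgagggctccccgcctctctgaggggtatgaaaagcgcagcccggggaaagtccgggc
Dusp1, GRCr8 chr10:17184603-17184852, plus strand: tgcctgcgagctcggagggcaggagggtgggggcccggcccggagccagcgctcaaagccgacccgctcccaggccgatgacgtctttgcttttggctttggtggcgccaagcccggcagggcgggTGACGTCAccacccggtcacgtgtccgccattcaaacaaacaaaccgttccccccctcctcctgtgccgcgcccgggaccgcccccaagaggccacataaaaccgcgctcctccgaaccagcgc
The CArG box lay 23 to 32 bases before the start of Zfp36 and 192 to 201 before that of Klf6, and the cyclic AMP response element 194 to 201 bases before Btg2 and 117 to 124 before Dusp1.

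Levels are given as FPKM, fragments scaled to transcript length and library size, which allows genes of unequal length to be compared. Differences are log2 fold changes of edgeR with ± 1 standard error, from expected counts scaled by TMM, and a gene was called where its Benjamini-Hochberg adjusted p over all genes tested was below 0.05. With 2 libraries against 2, an exact permutation test of 1 gene could not give a p under 0.333, so the calls rest on a spread shared across genes and groups. Libraries held 10555067 to 27562637 expected counts. Nothing in the labels says that the 2 libraries of a group came from separate sets of animals, so p-values measure the spread between these libraries. In the uncrushed comparison all 5 macrophage, 6 fibroblast, 4 endothelial and 3 perineurial markers stood lower in the purified cells than in the nerve, as were 2 of 3 of pericytes and smooth muscle (Pdgfrb was higher) and 1 of 2 tested of neutrophils. Of the 7 Schwann cell markers reported, Sox10, Mag, Ngfr and Gfap (log2 difference 4.08) were higher, and Mbp, Prx and S100b (-2.27) were lower. The summed macrophage markers stood at 1.85 to 11.0 FPKM in Schwann cells, with the highest value in replicate 2 of day 3, and in whole nerve they rose from 92.1 and 106 uncrushed to 443 and 472 at day 3. Mitochondrial transcripts took 14.2 to 15.6% of the counts of uncrushed whole nerve, 6.24 to 8.83% in crushed nerve, 2.90 and 3.65% in uncrushed Schwann cells, 5.70 and 5.86% at day 3 and 3.21 to 5.44% on days 5 and 7. The part of this share in the levels and changes was not tested.

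Immediate-early RNA was far higher in purified Schwann cells than in the intact nerve, with or without injury. The 39 genes together reached 8622 and 9861 FPKM in uncrushed Schwann cells, 3278 to 4117 after crush and 540.4 to 832.7 in all 8 whole nerve libraries. A few genes weighed heavily in these sums. Zfp36 and Fos made up 32.6 and 30.7% of the sum in uncrushed Schwann cells. Rhob alone stood at 339.5 and 278.1 FPKM in uncrushed nerve, where the sums were 587.8 and 540.4. The 39 genes took 1.67 and 1.90% of all counts in uncrushed Schwann cells, 0.684 to 0.856% after crush and 0.114 to 0.172% in whole nerve. Of the 37 genes with enough counts to test, 36 were higher in uncrushed Schwann cells than in uncrushed nerve and none lower, where 29.1% of all genes tested were higher and 64.4% were called in either direction. Their median log2 difference was 3.76, against -0.10 over all genes. At day 3, 34 were higher (24.5% of all genes higher, 57.3% called) with a median of 2.08, at day 5 all 37 (23.2% higher, 51.7% called) with 2.29, and at day 7, 36 (22.4% higher, 51.0% called) with 2.55. Averaged over the 4 time points all 37 were higher, against 34.7% of all genes higher and 75.3% called, and 34 were higher at every time point, against 11.9%, the exceptions being Klf2, Ier2 and Arc. In a pooled tissue, fewer cells of a type and less RNA per cell cannot be told apart. In 31 of the 37 the lowest of the 8 Schwann cell libraries lay above the highest of the 8 whole nerve libraries, where 10.4% of all genes did so. The 2 genes left out, Egr4 and Dusp2, had at most 2 and 13 expected counts in any library.

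**Figure D1:**
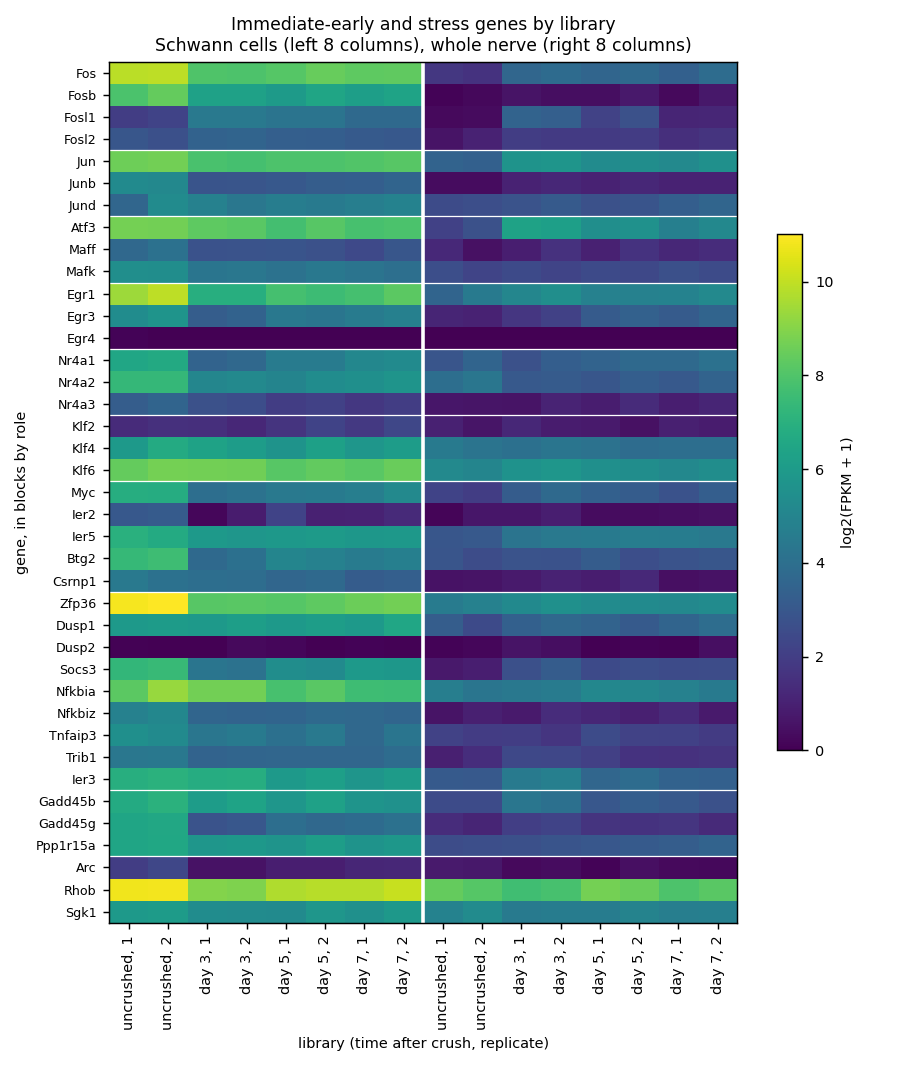
Level of each of the 39 genes as log2(FPKM + 1), with 1 column per library (8 of Schwann cells on the left, 8 of whole nerve on the right, ordered by time after crush) and 1 row per gene in blocks by role. The uncrushed Schwann cell columns are the brightest for most genes, led by Zfp36 (1875 and 2067 FPKM) and Rhob (1780 and 1811 FPKM), and the whole nerve columns are the darkest.

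After crush most of these genes fell in Schwann cells, and more of them rose than fell in whole nerve. In Schwann cells 28 of 37 fell at day 3, against 25.7% of all genes, and 2 rose (Fosl1 and Fosl2, against 26.9%), with a median of -0.99, where 52.5% of all genes were called. At day 5, 30 fell (25.6% of all genes) and 2 rose (29.0%), with 54.6% called, and at day 7, 29 fell (21.9%) and 1 rose (25.0%), with 46.9% called. The call of Fosl2 as higher at day 5, 0.51 ± 0.19 (adjusted p = 0.0471), was lost under every alternative run (adjusted p = 0.0519 to 0.26), which leaves Fosl1. In 27 genes the fall was called on all 3 days, against 16.3% of all genes, and 29 genes had both uncrushed Schwann cell libraries above all 6 from crushed nerves, against 25.5%. Of the 27, Ier2 lost the call at day 5 without uncrushed replicate 1 (-1.81, adjusted p = 0.0652), uncrushed replicate 2 (-1.65, adjusted p = 0.0857) or day 5 replicate 2 (-1.06, adjusted p = 0.14), and at day 7 without day 7 replicate 1 (-2.35, adjusted p = 0.0577), and those of Atf3, Csrnp1 and Gadd45b at day 3 were lost as given with each gene. In whole nerve 14 rose at day 3, against 23.1% of all genes, and 7 fell, against 22.5%, with a median of 0.31, where 45.6% of all genes were called. At day 5, 10 rose (18.9%) and 4 fell (19.5%), and at day 7, 10 rose (15.4%) and 5 fell (15.9%). In FPKM, 18 of the 37 had both uncrushed nerve libraries below all 6 from crushed nerves, near the 47.0% of all genes. In 2 genes both lay above, against 8.77%. The 8 genes that rose on all 3 days in whole nerve (10.8% of all genes) were Fos, Fosl1, Jun, Junb, Atf3, Egr3, Ier5 and Socs3, and Nr4a2, Klf4, Arc and Sgk1 fell on all 3 (11.3%). Several of these calls were lost when 1 library was left out. Junb lost its call at day 3 without uncrushed replicate 1 (1.59, adjusted p = 0.0622) or day 3 replicate 2 (1.47, adjusted p = 0.064) and at day 5 without uncrushed replicate 1 (1.61, adjusted p = 0.0676) or day 5 replicate 2 (1.45, adjusted p = 0.0704). At day 7 it was lost without any 1 of the 4 libraries compared (adjusted p = 0.0745 to 0.122) and with the 4 alone (1.48, adjusted p = 0.0581), and with DESeq2 Junb had no call on days 3, 5 and 7 (adjusted p = 0.062, 0.0641 and 0.123). Arc lost its call at day 3 without any 1 of the 4 libraries (adjusted p = 0.0538 to 0.131) and with DESeq2 (-1.80, adjusted p = 0.0609), at day 5 without uncrushed replicate 1 (-1.91, adjusted p = 0.085) or day 5 replicate 1 (-1.39, adjusted p = 0.104), and at day 7 without uncrushed replicate 1 (-2.07, adjusted p = 0.0856), day 7 replicate 1 (-2.28, adjusted p = 0.0811) or day 7 replicate 2 (-2.10, adjusted p = 0.0972). Fosl1 lost its call at day 7 without uncrushed replicate 1 (1.85, adjusted p = 0.0557), and Klf4 at day 5 in a fit of all 16 libraries (-0.67, adjusted p = 0.0513).

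Called both as lower in Schwann cells and as higher in whole nerve at day 3 were 11 genes, Fos, Jun, Junb, Atf3, Egr1, Egr3, Myc, Ier5, Socs3, Trib1 and Gadd45b, where 1.68% of the 14030 genes tested in both tissues took that course. The reverse course was taken by 0 of the 37 and by 2.02% of all genes. Both calls held under every alternative processing for Fos, Jun, Myc, Ier5 and Socs3, while Atf3 and Gadd45b lost the call in Schwann cells and Junb, Egr1, Egr3 and Trib1 that in whole nerve under at least 1. Of the rest of the 37, 6 fell in both tissues (Mafk, Nr4a2, Tnfaip3, Arc, Rhob and Sgk1, 12.8% of all genes), Fosl1 and Fosl2 rose in both (14.2%) and 11 fell in Schwann cells without a call in whole nerve (10.4%). Of the 6, Mafk lost the call in nerve without uncrushed replicate 1 (-0.28, adjusted p = 0.349), day 3 replicate 1 (-0.71, adjusted p = 0.0506) or day 3 replicate 2 (-0.40, adjusted p = 0.249), with DESeq2 (-0.55, adjusted p = 0.0887) and with the 4 libraries alone. Tnfaip3 lost it without uncrushed replicate 1 (-0.57, adjusted p = 0.113) or day 3 replicate 2 (-0.50, adjusted p = 0.15), and Arc as given above, while Sgk1 lost that in Schwann cells without day 3 replicate 2 (-0.61, adjusted p = 0.0642). Tested directly, the effect of injury at day 3 was more negative in Schwann cells than in whole nerve for 24 genes and more positive for none, against 13.7% of all genes more negative and 12.3% more positive, with a median of -1.92. Without uncrushed Schwann cell replicate 2, Jund and Klf4 were more positive in Schwann cells, at 0.97 and 0.88, so the absence of positive values depends on that library. At day 5 this was 27 genes (14.9% of all) and at day 7, 23 (14.4%). Each tissue was compared with its own uncrushed libraries, so the uncrushed level of the dissociated cells enters every one of these values, and whether it or the level after crush reflects the intact nerve was not tested. The 5 macrophage markers rose in whole nerve at day 3, 5 of 5, and their part in the rise of the 14 genes was not tested. Of the 7 Schwann cell markers, S100b, Mbp, Prx and Mag fell and Ngfr rose in whole nerve at day 3, without a call for Sox10 and Gfap, and in Schwann cells Mbp, Prx, Mag and Gfap fell and S100b and Ngfr rose, without a call for Sox10. In Schwann cells the summed pericyte and smooth muscle markers went from 46.9 and 34.4 FPKM uncrushed to 6.76 and 16.1 at day 3, and the summed fibroblast markers from 332 and 315 to 204 and 228. Of the 3 pericyte and smooth muscle markers Pdgfrb fell and the others had no call, of the 6 fibroblast markers Col1a1 fell and Fn1 rose, and of 4 macrophage markers tested Ptprc rose. The part of these markers in the changes of the 37 genes was not tested.

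**Figure D2:**
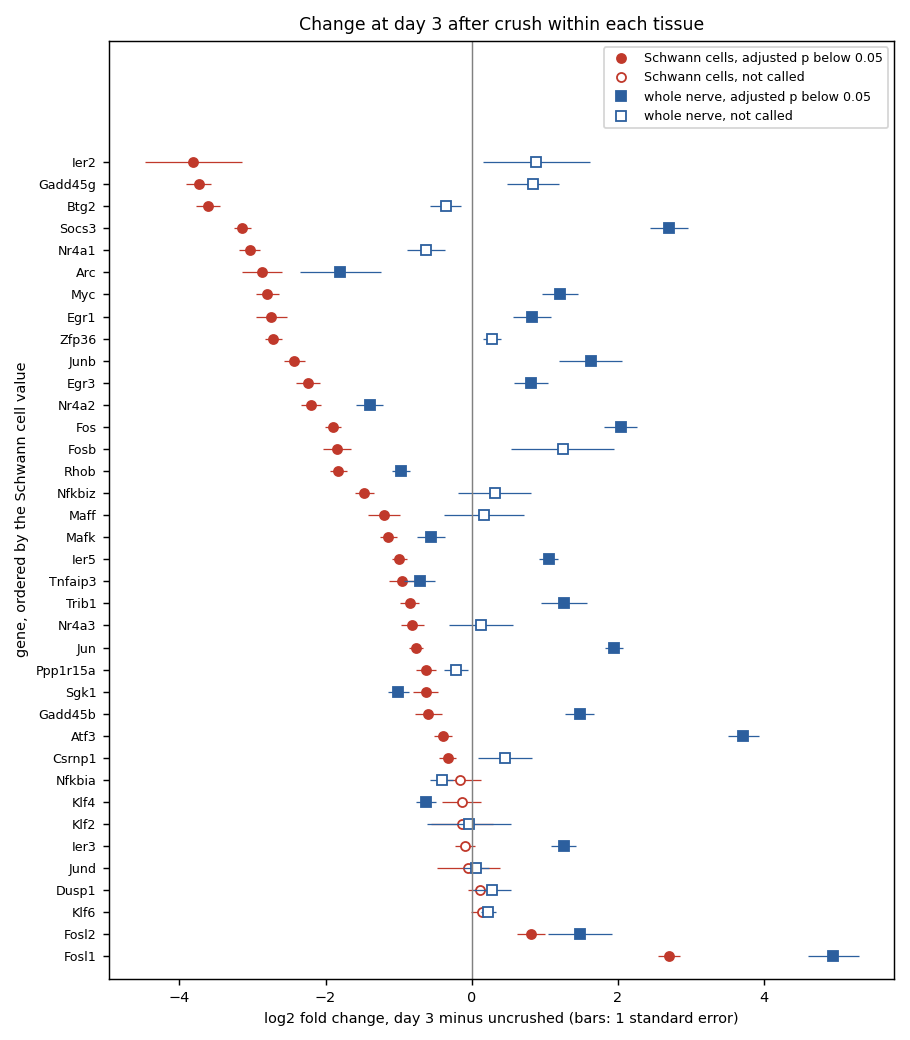
Log2 fold change at day 3 against uncrushed nerves for the 37 genes tested, in Schwann cells (red circles) and whole nerve (blue squares), with bars of 1 standard error and filled symbols for an adjusted p below 0.05. Schwann cell values run from -3.81 for Ier2 to 2.70 for Fosl1, and most of the whole nerve values lie to their right.

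The Fos proteins pair with Jun proteins to form AP-1. Fos, the classical marker of recent stimulation, stood at 934 and 962 FPKM uncrushed, then 250.3 and 241 on day 3, 276 and 345 on day 5 and 311 and 320.2 on day 7 in Schwann cells. In whole nerve Fos stood at 2.47 and 2.03 FPKM uncrushed, then 11.5 and 13.3 on day 3, 11.2 and 12.7 on day 5 and 9.44 and 14.0 on day 7. The tissues did not overlap, the uncrushed Schwann cells were above all crushed ones, and uncrushed nerve was below all crushed nerve, as in 47.0% of all genes. The log2 difference between the tissues was 8.39 ± 0.21 (adjusted p = 4.22e-12) uncrushed and 4.35 ± 0.16 (adjusted p = 6.11e-11) at day 3. The change at day 3 was -1.90 ± 0.11 (adjusted p = 7.79e-07) in Schwann cells and 2.04 ± 0.23 (adjusted p = 4.11e-05) in whole nerve. Fosb, a close relative, was the gene furthest apart, with 239.7 and 339.5 FPKM in uncrushed Schwann cells against 0.08 and 0.19 in uncrushed nerve (4 and 6 expected counts), a log2 difference of 10.85 ± 0.40 (adjusted p = 5.51e-11), and its change at day 3 in Schwann cells was -1.84 ± 0.19 (adjusted p = 3.49e-05). Fosl1, which encodes the late-acting Fra-1, ran the other way, at 3.05 and 3.60 FPKM uncrushed, then 20.7 and 21.0 on day 3, 17.7 and 17.7 on day 5 and 12.6 and 12.4 on day 7 in Schwann cells. In whole nerve the level was 0.22 and 0.26 FPKM uncrushed (5 and 4 expected counts, so that fold changes from it are uncertain), then 10.4 and 9.09 on day 3, 3.57 and 5.60 on day 5 and 1.22 and 1.27 on day 7. Both tissues were lowest uncrushed and highest at day 3, and the nerve at day 3 lay above the uncrushed Schwann cells. Fosl1 rose by 2.70 ± 0.15 (adjusted p = 4.38e-07) on the log2 scale in Schwann cells and by 4.95 ± 0.35 (adjusted p = 1.55e-06) in whole nerve at day 3, the largest increase of the 37 in each tissue. Fosl2, encoding Fra-2, rose at day 3 by 0.82 ± 0.19 (adjusted p = 0.00538) in Schwann cells and 1.48 ± 0.44 (adjusted p = 0.0195) in whole nerve, and the nerve call was lost without uncrushed replicate 1 (0.96, adjusted p = 0.16), day 3 replicate 1 (1.39, adjusted p = 0.0829) or day 3 replicate 2 (1.58, adjusted p = 0.0516).

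Jun, the AP-1 partner that drives the repair programme of Schwann cells after injury, stood at 383 and 408 FPKM uncrushed, then 232 and 218 on day 3, 244 and 245 on day 5 and 259.8 and 280.2 on day 7 in Schwann cells. The whole nerve held 10.3 and 9.39 FPKM uncrushed, then 49.0 and 52.0 on day 3, 38.4 and 40.9 on day 5 and 35.1 and 45.4 on day 7. The fall in Schwann cells was modest beside that of Fos and left every crushed library below the uncrushed ones, and in whole nerve every crushed library was above the uncrushed ones. At day 3 the change was -0.77 ± 0.10 (adjusted p = 0.000128) in Schwann cells and 1.95 ± 0.12 (adjusted p = 6.85e-07) in whole nerve, and the difference of these effects was -2.82 ± 0.16 (adjusted p = 3.92e-08). Junb, a Jun protein that dampens AP-1 activity, was at 37.2 and 34.6 FPKM in uncrushed Schwann cells and 6.32 to 10.6 after crush, against 0.28 and 0.3 in uncrushed nerve (7 and 5 expected counts) and 1.05 to 1.37 after crush. Its changes at day 3 were -2.43 ± 0.14 (adjusted p = 6.86e-07) in Schwann cells and 1.63 ± 0.43 (adjusted p = 0.0108) in whole nerve, the latter lost without uncrushed replicate 1 (1.59, adjusted p = 0.0622) or day 3 replicate 2 (1.47, adjusted p = 0.064). Jund, the Jun protein kept high in resting cells, had a wide spread, 11.3 and 38.8 FPKM in the 2 uncrushed Schwann cell libraries, and no change at day 3 was called in Schwann cells (log2 change -0.05 ± 0.43, adjusted p = 0.933). Without uncrushed replicate 2 its value was 1.11 (adjusted p = 0.00235) and without uncrushed replicate 1 it was -0.70 (adjusted p = 0.0141), so a direction cannot be given.

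Atf3, a stress-induced bZIP factor and a marker of nerve injury, stood at 416 and 402 FPKM uncrushed, then 312 and 291 on day 3, 208 and 286 on day 5 and 221 and 237 on day 7 in Schwann cells. Whole nerve libraries were at 3.33 and 5.66 FPKM uncrushed, then 79.7 and 73.4 on day 3, 43.0 and 47.0 on day 5 and 26.1 and 34.3 on day 7. Schwann cells were above nerve in every library, and the nerve was highest at day 3 and lower at each later day, yet still above both uncrushed libraries. The rise at day 3 in whole nerve, 3.72 ± 0.21 (adjusted p = 3.06e-07), was second in size to that of Fosl1, and the difference of the effects was -4.21 ± 0.27 (adjusted p = 8.82e-08). The fall in Schwann cells was small at day 3, -0.39 ± 0.13 (adjusted p = 0.0276), and not called without uncrushed replicate 1 (-0.40, adjusted p = 0.0565), day 3 replicate 1 (-0.46, adjusted p = 0.0669) or day 3 replicate 2 (-0.35, adjusted p = 0.148), and it reached -0.88 ± 0.13 (adjusted p = 0.000456) at day 7. The small Maf proteins Maff and Mafk, which have no activation domain, were at 12.1 and 16.2 and at 42.2 and 41.4 FPKM in uncrushed Schwann cells and fell at day 3 to 5.75 and 6.13 and to 18.3 and 19.4. In whole nerve Maff stayed between 0.43 and 2.04 FPKM without a call.

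Egr1, a zinc finger factor induced through serum response factor, stood at 679.6 and 957 FPKM uncrushed, then 119 and 118 on day 3, 219 and 186 on day 5 and 215 and 304 on day 7 in Schwann cells. In the intact nerve there were 10.8 and 21.6 FPKM uncrushed, then 32.2 and 42.9 on day 3, 27.7 and 27.2 on day 5 and 28.1 and 35.9 on day 7. The 2 tissues kept apart, with the day 3 Schwann cells the lowest of their tissue and the uncrushed nerve the lowest of its own. Egr1 changed by -2.74 ± 0.21 (adjusted p = 5e-06) in Schwann cells and 0.83 ± 0.26 (adjusted p = 0.0244) in whole nerve at day 3, the latter lost without uncrushed replicate 1 (0.39, adjusted p = 0.142) or day 3 replicate 2 (0.62, adjusted p = 0.155) and with DESeq2 (0.81, adjusted p = 0.0946). Egr3, of the same family, stood at 40.2 and 51.5 FPKM uncrushed, then 8.64 and 9.91 on day 3, 20.5 and 18.3 on day 5 and 22.6 and 26.4 on day 7 in Schwann cells. The nerve values were 1.22 and 1.10 FPKM uncrushed, then 2.32 and 3.33 on day 3, 7.94 and 9.78 on day 5 and 8.04 and 10.8 on day 7. Egr3 in nerve was higher on days 5 and 7 than on day 3 and there overlapped the day 3 Schwann cells. The difference of the effects was -3.16 ± 0.30 (adjusted p = 3e-06) at day 3 and -3.89 ± 0.29 (adjusted p = 3.72e-07) at day 5. The nerve call at day 3, 0.82 ± 0.23 (adjusted p = 0.0154), was lost without uncrushed replicate 1 (0.86, adjusted p = 0.0627), uncrushed replicate 2 (0.80, adjusted p = 0.0601) or day 3 replicate 2 (0.52, adjusted p = 0.125).

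The orphan receptors of the Nr4a family act without a ligand as soon as they are made. Nr4a1 stood at 90.1 and 104 FPKM uncrushed, then 10.3 and 12.3 on day 3, 22.8 and 23.1 on day 5 and 33.1 and 37.8 on day 7 in Schwann cells. In whole nerve the level was 6.40 and 10.6 FPKM uncrushed, then 5.61 and 8.82 on day 3, 10.2 and 12.5 on day 5 and 12.5 and 16.2 on day 7. The Schwann cells of day 3 lay just above the nerve of day 3 and within the range of the nerve at other times, and the tissue difference, 3.22 log2 units uncrushed, was 0.71 ± 0.22 (adjusted p = 0.0143), lost without Schwann cell day 3 replicate 2 (0.56, adjusted p = 0.108) or whole nerve day 3 replicate 1 (0.43, adjusted p = 0.17). Nr4a1 changed by -3.04 ± 0.14 (adjusted p = 1.87e-07) in Schwann cells at day 3, and in whole nerve it had -0.63 ± 0.26 (adjusted p = 0.0729), called without uncrushed replicate 1 (-0.95, adjusted p = 0.0156) or day 3 replicate 2 (-0.97, adjusted p = 0.0323), without a filter (-0.59, adjusted p = 0.000923) and with DESeq2 (-0.64, adjusted p = 0.0397). Nr4a2 stood at 161 and 161 FPKM uncrushed, then 31.9 and 35.3 on day 3, 30.1 and 39.6 on day 5 and 43.9 and 50.8 on day 7 in Schwann cells. The whole nerve held 14.8 and 18.9 FPKM uncrushed, then 7.54 and 7.99 on day 3, 6.67 and 8.92 on day 5 and 7.47 and 10.5 on day 7. Here both tissues were highest uncrushed with no overlap with crushed libraries, and the changes at day 3 were -2.20 ± 0.14 (adjusted p = 1.14e-06) and -1.40 ± 0.19 (adjusted p = 0.000149). Nr4a3 fell in Schwann cells from 8.50 and 10.8 FPKM to 5.58 and 5.10 at day 3 and 2.43 and 3.06 at day 7, and stayed between 0.49 and 1.57 in nerve.

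**Figure D3:**
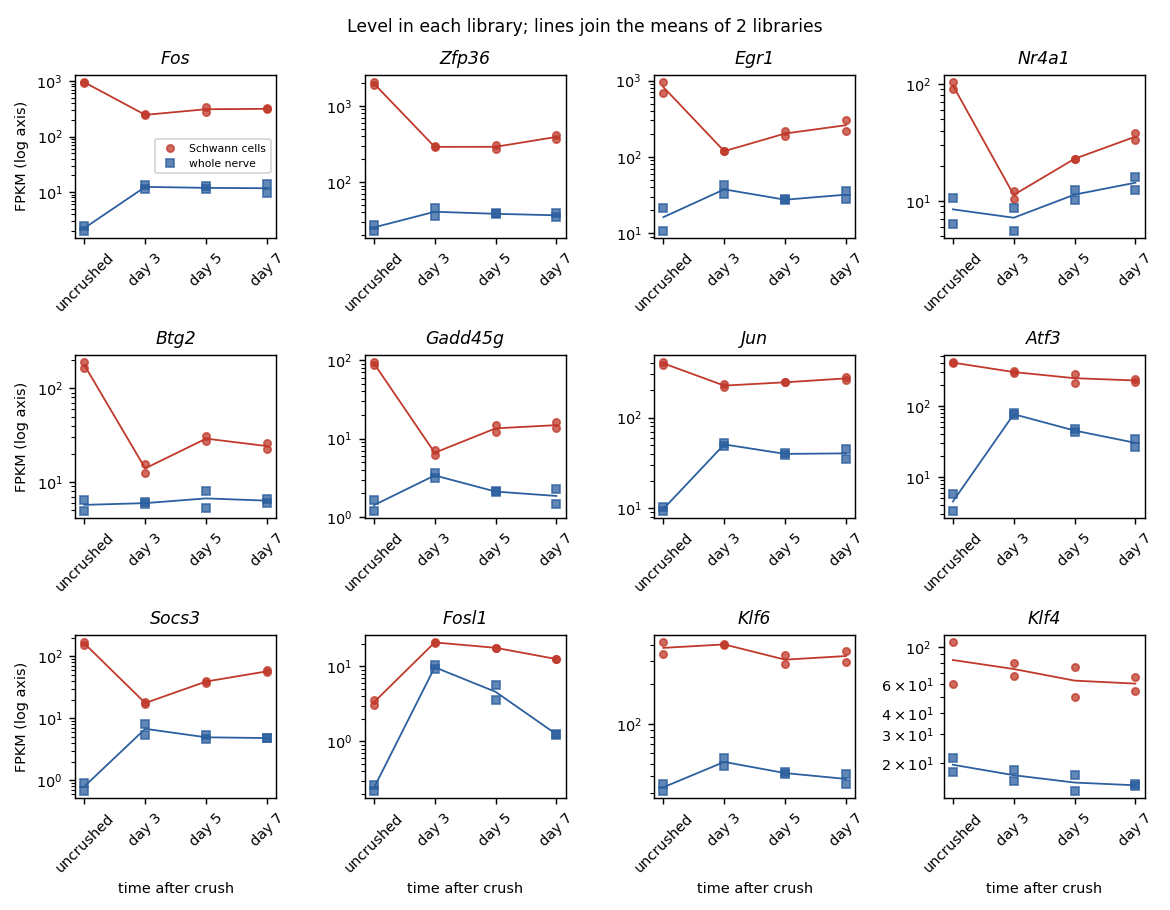
FPKM on a log axis against time after crush for 12 of the genes, with Schwann cells as red circles, whole nerve as blue squares, 2 libraries per point in time and lines through the group means; each panel has its own axis. Most Schwann cell series drop at day 3, Fosl1 rises in both tissues, and the Schwann cell levels of Klf6 (284 to 407 FPKM after crush) and Klf4 (49.8 to 80.2) stay near the uncrushed ones.

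The 3 Klf factors, zinc finger proteins, had no called change after crush in Schwann cells on any day, where 32.1% of all genes had none. Without uncrushed replicate 1, however, Klf4 (-0.82 and -0.89) and Klf6 (-0.49 and -0.41, adjusted p = 0.013 and 0.0325) were called lower on days 5 and 7, Klf4 also without a filter (adjusted p = 0.00181 and 0.000248). Klf6 was among the most abundant of all, at 340.2 and 419 FPKM uncrushed, then 407 and 399.6 on day 3, 284 and 334 on day 5 and 296 and 362 on day 7 in Schwann cells. Whole nerve libraries were at 35.0 and 31.0 FPKM uncrushed, then 48.1 and 54.8 on day 3, 43.1 and 41.5 on day 5 and 34.8 and 41.6 on day 7. In Schwann cells days 3 and 7 overlapped uncrushed and day 5 lay below it, with day 3 above days 5 and 7, and in nerve days 3 and 5 lay above uncrushed in FPKM without a call, but with one at day 3 without a filter (0.27, adjusted p = 0.0406), and day 7 overlapped it. Klf6 was 3.02 ± 0.07 (adjusted p = 4.98e-14) log2 units higher in Schwann cells averaged over time. Klf4 stood at 60.1 and 106 FPKM uncrushed, then 80.2 and 66.9 on day 3, 49.8 and 75.5 on day 5 and 54.0 and 66.2 on day 7 in Schwann cells. In the intact nerve there were 21.6 and 17.6 FPKM uncrushed, then 15.6 and 18.4 on day 3, 17.0 and 13.7 on day 5 and 14.6 and 15.0 on day 7. In Schwann cells the uncrushed libraries overlapped those of each day after crush, and both of day 3 lay just above both of day 7, while in nerve its change at day 3 was -0.62 ± 0.14 (adjusted p = 0.00389), although day 3 replicate 2 lay above uncrushed replicate 2 in FPKM and the call was lost in a fit of all 16 libraries (-0.55, adjusted p = 0.0903). In Schwann cells its day 3 value was -0.14 ± 0.27 (adjusted p = 0.681), and 0.34 (adjusted p = 0.228) without uncrushed replicate 2. Klf2 was low everywhere, 1.35 to 4.05 FPKM in Schwann cells and 0.4 to 1.31 in nerve.

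Among the other nuclear proteins, Myc, the growth-promoting factor, stood at 115 and 112 FPKM uncrushed, then 14.8 and 16.7 on day 3, 20.8 and 22.4 on day 5 and 24.9 and 35.7 on day 7 in Schwann cells. The nerve values were 3.68 and 3.03 FPKM uncrushed, then 8.15 and 12.6 on day 3, 9.35 and 8.31 on day 5 and 5.89 and 8.85 on day 7. After crush the Schwann cells came within reach of the nerve without overlap. Myc changed at day 3 by -2.79 ± 0.16 (adjusted p = 7.06e-07) in Schwann cells and 1.21 ± 0.25 (adjusted p = 0.00249) in nerve. The difference left between the tissues, 0.65 ± 0.20 (adjusted p = 0.014), was lost without Schwann cell day 3 replicate 2 (0.54, adjusted p = 0.0953) or nerve day 3 replicate 1 (0.38, adjusted p = 0.178). Btg2, an antiproliferative protein that promotes mRNA deadenylation, stood at 164 and 191 FPKM uncrushed, then 12.5 and 15.6 on day 3, 31.0 and 27.2 on day 5 and 22.6 and 25.9 on day 7 in Schwann cells. In whole nerve the level was 6.48 and 4.96 FPKM uncrushed, then 6.07 and 5.87 on day 3, 8.14 and 5.27 on day 5 and 6.02 and 6.67 on day 7. The nerve libraries overlapped at all times and the Schwann cells went from a mean of 177 ± 19.3 to 14.0 ± 2.18 FPKM (SD, n = 2), a change of -3.60 ± 0.16 (adjusted p = 1.74e-07) against -0.35 ± 0.21 (adjusted p = 0.196) in nerve. Csrnp1, a nuclear factor, stood at 20.9 and 16.1 FPKM uncrushed, then 14.7 and 14.3 on day 3, 11.6 and 12.5 on day 5 and 8.34 and 9.14 on day 7 in Schwann cells. The whole nerve held 0.46 and 0.49 FPKM uncrushed, then 0.76 and 1.05 on day 3, 0.86 and 1.38 on day 5 and 0.36 and 0.46 on day 7. Schwann cells were lower on each later day with no overlap with uncrushed, and in nerve days 3 and 5 lay above uncrushed in FPKM without a call (adjusted p at day 5 = 0.116, and 0.0188 to 0.481 over the alternatives) while day 7 reached down to it, 0.46 FPKM in the higher library. It was 5.03 ± 0.22 (adjusted p = 2.55e-10) log2 units higher in uncrushed Schwann cells. Its fall at day 3, -0.33 ± 0.12 (adjusted p = 0.0451), was lost in a fit of all 16 libraries or of the 4 alone, without a filter, with DESeq2 (-0.36, adjusted p = 0.0677) and without uncrushed replicate 1 (-0.16, adjusted p = 0.312), day 3 replicate 1 (-0.34, adjusted p = 0.14) or day 3 replicate 2 (-0.34, adjusted p = 0.145). Ier5 fell from 127.7 and 106.3 to 59.5 and 54.0 FPKM at day 3 in Schwann cells and rose from 6.75 and 7.56 to 18.1 and 21.2 in nerve. Ier2, with 3 to 136 expected counts in Schwann cells, changed by -3.81 ± 0.66 (adjusted p = 0.00101) at day 3, and at that time its tissue difference was -0.49 ± 0.71 (adjusted p = 0.577) and 0.14 (adjusted p = 0.894) without Schwann cell day 3 replicate 1.

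Zfp36, which binds AU-rich elements and speeds the decay of immediate-early and cytokine mRNA, was the most abundant of the 39 in uncrushed Schwann cells, at 1875 and 2067 FPKM uncrushed, then 287 and 294 on day 3, 273 and 309 on day 5 and 374 and 411 on day 7. Whole nerve libraries were at 23.1 and 27.7 FPKM uncrushed, then 36.4 and 45.2 on day 3, 38.9 and 37.8 on day 5 and 34.4 and 38.9 on day 7. The uncrushed Schwann cells were above all crushed ones by more than 4 times, and the nerve libraries lay within a 2-fold range. Zfp36 was 5.97 ± 0.15 (adjusted p = 4.22e-12) log2 units above nerve uncrushed and changed at day 3 by -2.71 ± 0.11 (adjusted p = 1.17e-07) in Schwann cells. Its nerve value, 0.28 ± 0.13 (adjusted p = 0.0947), was called without uncrushed replicate 2 (0.42, adjusted p = 0.0475) or day 3 replicate 1 (0.43, adjusted p = 0.0441), in a fit of all 16 libraries (0.35, adjusted p = 0.0353) and without a filter (0.32, adjusted p = 0.0278). Klf6, which shares the CArG box with it, had 0.14 ± 0.14 (adjusted p = 0.444) in Schwann cells at day 3. Socs3, the feedback inhibitor of gp130 and Stat3 signaling, stood at 154 and 169 FPKM uncrushed, then 18.4 and 16.9 on day 3, 40.7 and 37.8 on day 5 and 59.3 and 55.2 on day 7 in Schwann cells. In the intact nerve there were 0.68 and 0.92 FPKM uncrushed, then 5.36 and 8.21 on day 3, 4.59 and 5.31 on day 5 and 4.78 and 4.85 on day 7. Schwann cells were above nerve in every library, highest uncrushed and lowest on day 3, and the nerve was lowest uncrushed. Socs3 had the largest difference of injury effects of the 37 at day 3, -5.95 ± 0.27 (adjusted p = 6.85e-09), with changes of -3.14 ± 0.12 (adjusted p = 6.43e-08) in Schwann cells and 2.70 ± 0.26 (adjusted p = 1.49e-05) in nerve. Dusp1, a phosphatase of MAP kinases, was at similar levels in Schwann cells throughout, 62.1 and 65.4 FPKM uncrushed and 60.3 to 91.2 after crush, against 4.63 to 14.1 in nerve, and its day 3 change in Schwann cells was 0.12 ± 0.17 (adjusted p = 0.582). Btg2, with the same cyclic AMP response element, had -3.60 ± 0.16 (adjusted p = 1.74e-07).

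Among the inhibitors of NF-kB signaling, Tnfaip3 and Nfkbiz were called lower in Schwann cells on days 3, 5 and 7. Nfkbia was called lower on days 5 and 7 only, and its call at day 5 did not hold under every alternative. Nfkbia, which holds NF-kB in the cytoplasm, was at 297.4 and 643 FPKM in the 2 uncrushed Schwann cell libraries, a spread that leaves its day 3 value of -0.16 ± 0.29 (adjusted p = 0.665) at 0.51 (adjusted p = 0.0117) without uncrushed replicate 2 and at -0.62 (adjusted p = 0.00341) without uncrushed replicate 1. By day 7 both libraries, at 192 and 188 FPKM, were below both uncrushed ones. Tnfaip3, a ubiquitin-editing enzyme, fell from 44.0 and 37.1 to 19.2 and 21.6 FPKM at day 3, and Nfkbiz from 28.0 and 32.8 to 11.0 and 10.2. In nerve Tnfaip3 stood at 2.23 to 4.74 FPKM and Nfkbiz at 0.48 to 1.60. Ier3, which limits apoptosis, had no call at day 3 in Schwann cells (log2 change -0.09 ± 0.14, adjusted p = 0.594) and rose in nerve from 7.60 and 7.39 to 21.7 and 26.0 FPKM. Trib1, a pseudokinase that directs C/EBP proteins to decay, fell from 19.9 and 20.4 to 10.4 and 11.2 FPKM in Schwann cells and rose from 0.93 and 1.75 to 4.24 and 4.09 in nerve, the latter call being lost without uncrushed replicate 1 (0.84, adjusted p = 0.0704).

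Gadd45g, a growth arrest and stress sensor, stood at 88.1 and 94.9 FPKM uncrushed, then 6.14 and 7.05 on day 3, 14.9 and 12.1 on day 5 and 13.6 and 16.1 on day 7 in Schwann cells. The nerve values were 1.62 and 1.20 FPKM uncrushed, then 3.10 and 3.67 on day 3, 2.15 and 2.06 on day 5 and 2.24 and 1.46 on day 7. The uncrushed Schwann cells were more than 5 times any crushed library, and in nerve day 3 was highest, with day 7 overlapping uncrushed. Gadd45g changed by -3.74 ± 0.17 (adjusted p = 1.74e-07) in Schwann cells at day 3 and 0.84 ± 0.36 (adjusted p = 0.0784) in nerve, the latter called in a fit of all 16 libraries (0.90, adjusted p = 0.0138). Gadd45b, its relative, fell at day 3 from 104.8 and 128.4 to 66.4 and 83.9 FPKM, a call lost without uncrushed replicate 2 (-0.44, adjusted p = 0.103) or day 3 replicate 1 (-0.45, adjusted p = 0.13). It rose in nerve from 4.77 and 4.70 to 19.1 and 15.8. Ppp1r15a, which restores translation after stress by directing dephosphorylation of eIF2-alpha, stood at 87.1 and 93.2 FPKM uncrushed, then 55.0 and 57.5 on day 3, 50.7 and 69.6 on day 5 and 49.0 and 55.6 on day 7 in Schwann cells. In whole nerve the level was 4.94 and 5.25 FPKM uncrushed, then 5.41 and 6.25 on day 3, 7.01 and 7.68 on day 5 and 8.56 and 10.3 on day 7. Its change in Schwann cells at day 3 was -0.63 ± 0.14 (adjusted p = 0.00407), and in nerve the libraries of day 7 were the highest. Its rise in nerve at day 7, 0.49 ± 0.16 (adjusted p = 0.0426), was lost with DESeq2 (0.49, adjusted p = 0.123) and without uncrushed replicate 1 (0.44, adjusted p = 0.162), uncrushed replicate 2 (0.53, adjusted p = 0.088) or day 7 replicate 2 (0.36, adjusted p = 0.197).

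Of the effectors, Rhob, an endosomal GTPase, stood at 1780 and 1811 FPKM uncrushed, then 504 and 475 on day 3, 840.2 and 896 on day 5 and 903 and 1100 on day 7 in Schwann cells. The whole nerve held 339.5 and 278 FPKM uncrushed, then 198 and 223 on day 3, 418 and 358 on day 5 and 246 and 295 on day 7. It was the most abundant of the 39 in every whole nerve library, and Schwann cells were above nerve throughout. Both tissues were lowest at day 3, with changes of -1.83 ± 0.11 (adjusted p = 1.09e-06) and -0.96 ± 0.13 (adjusted p = 0.000137), and at day 5 the nerve was above uncrushed in FPKM without a call (log2 change -0.08 ± 0.13, adjusted p = 0.662). Arc, a regulator of synaptic receptors known from neurons, was low, 2.96 and 4.03 FPKM in uncrushed Schwann cells and 0.46 to 1.37 after crush, and 0.09 to 0.74 in nerve. Sgk1, a kinase of ion transport and stress, differed least between the tissues of the 36 genes called uncrushed, 0.56 ± 0.17 (adjusted p = 0.0106), lost without Schwann cell uncrushed replicate 2 (0.47, adjusted p = 0.067) or nerve uncrushed replicate 1 (0.36, adjusted p = 0.139).

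**Figure D4:**
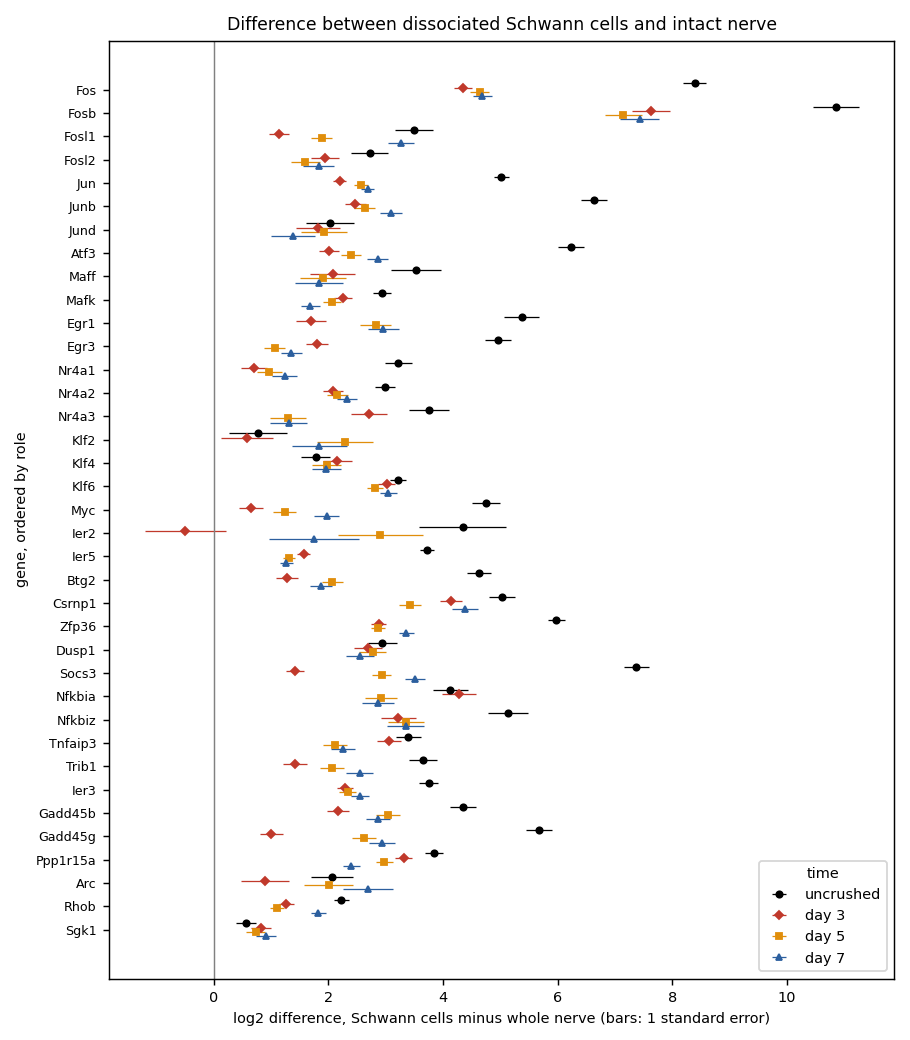
Log2 difference between Schwann cells and whole nerve for the 37 genes tested at each of the 4 time points, with bars of 1 standard error. The uncrushed difference is the largest for most genes and reaches 10.85 for Fosb, and Ier2 at day 3 is the only value below 0.

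From day 3 to day 7 the genes parted in Schwann cells. Rising were 11 of the 37, against 10.2% of all genes (Junb, Egr1, Egr3, Zfp36, Btg2, Nr4a1, Myc, Gadd45g, Socs3, Arc and Rhob), and falling were 7, against 10.7% (Fosl1, Atf3, Ier3, Nr4a3, Gadd45b, Csrnp1 and Nfkbia). Socs3 rose by 1.61 ± 0.11 (adjusted p = 2.4e-05) and Nr4a1 by 1.54 ± 0.14 (adjusted p = 7.69e-05) on the log2 scale, each to below its uncrushed level. Ier3 changed by -1.03 ± 0.14 (adjusted p = 0.000786) and Csrnp1 by -0.81 ± 0.13 (adjusted p = 0.00177). Of these 18 calls 11 held under every alternative, and those of Junb, Zfp36, Btg2, Arc, Atf3, Gadd45b and Nfkbia did not, among them Zfp36 without day 3 replicate 1 (0.32, adjusted p = 0.215), day 3 replicate 2 (0.37, adjusted p = 0.166), day 7 replicate 1 (0.41, adjusted p = 0.0842) or day 7 replicate 2 (0.27, adjusted p = 0.201). In whole nerve 3 rose from day 3 to day 7 (Egr3, Nr4a1 and Ppp1r15a, against 9.85% of all genes) and 6 fell (Fosl1, Atf3, Klf6, Trib1, Ier3 and Gadd45b, against 11.4%). Of these 9 calls 5 held under every alternative. Nr4a1 lost its call without day 3 replicate 1 (0.71, adjusted p = 0.155) or day 7 replicate 2 (0.80, adjusted p = 0.112), and Ppp1r15a without the same libraries (0.61, adjusted p = 0.093, and 0.56, adjusted p = 0.0646). Klf6 lost it without day 3 replicate 2 (-0.35, adjusted p = 0.142) or day 7 replicate 1 (-0.30, adjusted p = 0.111) and in a fit of all 16 libraries (-0.40, adjusted p = 0.0545), and Trib1 without any 1 of the 4 libraries (adjusted p = 0.102 to 0.156) and with DESeq2 (-1.01, adjusted p = 0.0632). The fall of Fosl1 in nerve, -2.97 ± 0.27 (adjusted p = 5.01e-05), was the largest of these.

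When the variation of log2(FPKM + 1) over the 16 libraries was split by tissue, time and their combination, tissue held a median of 81.2% over the 37 genes, time 4.48%, their combination 8.16% and the difference between replicates 1.03%. Over all genes tested the medians were 34.4, 28.3, 10.6 and 7.21%. Tissue held the largest share in 36 of the 37, against 46.3% of all genes. The exception was Fosl1, with 54.1% in time.

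**Figure D5:**
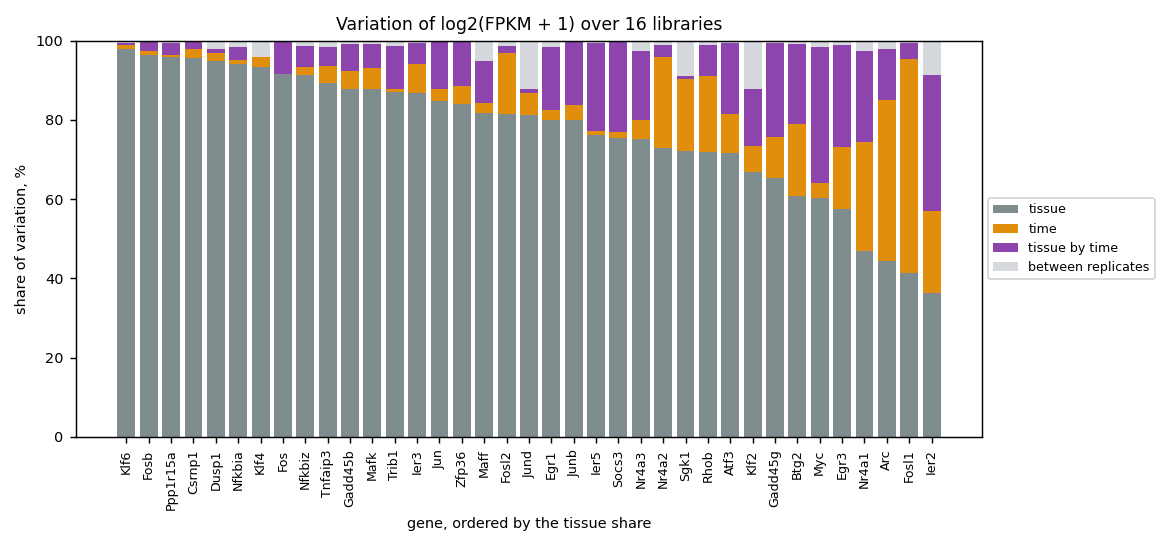
Share of the variation of log2(FPKM + 1) that lies between tissues, between times, in their combination and between replicates, for each of the 37 genes tested, ordered by the tissue share. Klf6 has the largest tissue share, time leads in Fosl1 alone, and Ier2, Arc and Fosl1 have the smallest tissue shares.

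The authors' co-expression modules, built from the Schwann cell libraries, list 6274 genes in 10 modules and include 19 of the 39. Module 7 held 15 of these (Btg2, Egr1, Fos, Gadd45g, Ier5, Junb, Maff, Mafk, Myc, Nfkbiz, Nr4a1, Nr4a2, Rhob, Socs3 and Zfp36), where it holds 6.85% of the table. Module 10 held Fosl1 and Fosl2, with 40.8% of the table, and module 4 held Egr3 and Jun, with 1.32%. The modules rest on the same Schwann cell libraries as the fold changes and are not independent of them.

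Of 25 kinases and factors that switch these genes on, 17 were higher (29.1% of all genes) and 2 lower (35.3%) in uncrushed Schwann cells than in nerve, with a median of 0.47, and 6 rose (26.9%) and 7 fell (25.7%) at day 3 in Schwann cells. Averaged over time Stat3, the target of Socs3, was 1.26 ± 0.06 (adjusted p = 7.3e-11) log2 units higher and Elk3, a serum response factor partner, -2.73 ± 0.09 (adjusted p = 7.12e-13). At day 3 Rps6ka1, a kinase downstream of ERK, rose by 1.89 ± 0.14 (adjusted p = 2.86e-06) in Schwann cells and 2.12 ± 0.22 (adjusted p = 2.87e-05) in nerve. Stat3 changed by -0.97 ± 0.11 (adjusted p = 5.77e-05) in Schwann cells and Crtc3, a CREB coactivator, by -1.09 ± 0.13 (adjusted p = 7.41e-05) in nerve. Among 10 further partners of AP-1 and the small Maf proteins, 4 were higher (29.1% of all genes) and 3 lower (35.3%) uncrushed, with Bach1 at 1.39 ± 0.09 (adjusted p = 4.03e-09) and Batf at -5.30 ± 0.72 (adjusted p = 2.11e-05) over time. At day 3 Batf3 rose by 1.76 ± 0.41 (adjusted p = 0.00533) and Atf4 changed by -1.08 ± 0.09 (adjusted p = 8.13e-06) in Schwann cells, and Batf rose by 2.69 ± 0.71 (adjusted p = 0.011) and Atf7 changed by -0.71 ± 0.10 (adjusted p = 0.000189) in nerve.

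Other rapidly induced genes encode cytokines, enzymes and matrix proteins. Of 28 measured, 21 were higher (29.1% of all genes) and none lower in uncrushed Schwann cells, with a median of 2.16. At day 3, 19 fell (25.7%) and 6 rose (26.9%) in Schwann cells, and 16 of 26 rose (23.1%) and 3 fell (22.5%) in nerve. Cxcl1, a chemokine for neutrophils, was 6.65 ± 0.15 (adjusted p = 2.54e-14) log2 units higher over time and changed by -3.54 ± 0.18 (adjusted p = 3.32e-07) at day 3 in Schwann cells, and Ctgf, a matrix protein, was -0.89 ± 0.11 (adjusted p = 3.37e-06) over time. Lif, a cytokine of the injured nerve, rose by 3.60 ± 0.27 (adjusted p = 3.99e-06) in Schwann cells. In nerve Ccl2, a monocyte chemokine, rose by 4.91 ± 0.20 (adjusted p = 2.95e-08) and Per1, a clock gene, changed by -2.12 ± 0.19 (adjusted p = 8.08e-06). Heat shock genes, which are also known from dissociated tissue, were higher in uncrushed Schwann cells for 9 of 11 (29.1% of all genes) and lower for 1 (35.3%), with a median of 1.67. At day 3 none rose (26.9%) and 5 fell (25.7%) in Schwann cells while 5 rose (23.1%) and 1 fell (22.5%) in nerve. Hspa1a, an inducible chaperone, was 8.98 ± 0.24 (adjusted p = 1.47e-13) higher over time, but its reads are shared with a near-identical gene and the value is uncertain. Hspe1, a mitochondrial chaperonin, was -0.57 ± 0.07 (adjusted p = 2.63e-06), and Bag3, an Hsp70 partner, rose by 1.02 ± 0.12 (adjusted p = 8.01e-05) at day 3 in nerve and had 0.45 ± 0.19 (adjusted p = 0.0737) in Schwann cells.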

How the data were processed

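Per the labels and the study's methods, amplified cDNA (Ovation RNA-seq V2, without molecular identifiers) of 16 libraries was sequenced, and the authors aligned reads with STAR to Rnor_6.0 and estimated levels with RSEM. The deposited values used were expected counts, whose depth per library is given with the results and sets counting error only, and FPKM, which the authors scaled to gene length and library. The deposited module table was used for module names, and its 8 FPKM columns were not used. Expected counts were rounded and fitted with edgeR 4.0.16 in R 4.3.3 (TMM, filterByExpr, quasi-likelihood test, Benjamini-Hochberg adjustment, threshold 0.05) in separate fits of Schwann cells (14961 genes), whole nerve (15831) and all 16 libraries (16829, for tissue differences and differences of injury effects). The code was tested on simulated data. Alternatives were other normalization, filters, DESeq2 1.42.0, a replicate block, a test for at least a 2-fold difference, 1 fit of all libraries, fits of the 4 libraries compared, pseudocount 0.1 and leaving out each library. Values in every library are given for 18 genes: Fos, Jun, Atf3, Egr1, Zfp36 and, in each role, those with the lowest adjusted p in the average tissue difference, in any change from uncrushed and in the difference of injury effects at day 3. From the other lists the extremes were named. 2 further Schwann cell markers are not reported here. The members and gene lists were chosen with earlier results of these data known. Figures used Python 3.11.15 and matplotlib 3.10.9.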

Additional observations from a re-analysis of the deposited data

Results flagged for a closer look

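The effect of injury at day 3 differed between the tissues by the edgeR test of the difference itself in 24 genes, each more negative in Schwann cells than in whole nerve. Among the AP-1 and other bZIP genes the log2 difference was -4.04 for Fos, -3.22 for Fosb, -2.35 for Fosl1, -2.82 for Jun, -4.16 for Junb, -4.21 for Atf3 and -0.68 for Mafk. Among the Egr and Nr4a genes it was -3.67 for Egr1, -3.16 for Egr3, -2.52 for Nr4a1 and -0.91 for Nr4a2. Among the other nuclear proteins it was -4.10 for Myc, -4.84 for Ier2, -2.15 for Ier5, -3.34 for Btg2 and -0.89 for Csrnp1. Among the feedback regulators it was -3.10 for Zfp36, -5.95 for Socs3, -1.92 for Nfkbiz, -2.23 for Trib1 and -1.45 for Ier3. Gadd45b had -2.17, Gadd45g -4.67 and Rhob -0.96. The calls of Csrnp1, Mafk, Nfkbiz and Nr4a2 did not hold under every alternative, among them leaving out 1 uncrushed whole nerve library, replicate 1 for Csrnp1 (-0.88, adjusted p = 0.161), Nfkbiz (-1.40, adjusted p = 0.0779) and Nr4a2 (-0.71, adjusted p = 0.0721) and replicate 2 for Mafk (-0.46, adjusted p = 0.166). The same test called 27 genes at day 5 and 23 at day 7.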

How the results depend on the processing

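No called change reversed under any alternative, and the values that reversed had no call as reported. With 1 library left out, the day 3 change in Schwann cells ran from -0.70 (without uncrushed replicate 1) to 1.11 (without uncrushed replicate 2) for Jund, with 0.18 without day 3 replicate 2, from -0.51 to 0.34 for Klf4, from -0.029 to 0.30 for Klf6 and from -0.62 to 0.51 for Nfkbia. In whole nerve Dusp1 ran from -0.063 to 0.80. The difference of injury effects ran from -0.85 to 0.97 for Jund, with 0.01 without Schwann cell day 3 replicate 2, and from -0.76 to 0.10 for Dusp1, and the tissue difference of Ier2 at day 3 from -2.31 to 0.14. The cause was not tested. The median share of variation between tissues, 81.25% as reported, was 80.87% with a pseudocount of 0.1, 81.07% from CPM and 81.35 to 81.37% with a replicate number left out.
Leaving out 1 library left 27 to 31 calls in Schwann cells at day 3 and 15 to 21 in whole nerve, and 12 to 14 and 6 to 8 from day 3 to day 7, where 18 and 9 were called with all libraries. Over all genes, correlations of same-numbered libraries' deviations between groups were -0.0576 to 0.0838, and pairing of the 37 genes alone was not tested. In FPKM, 28, 20, 26 and 30 of the 37 were higher in replicate 2 in Schwann cells uncrushed and on days 3, 5 and 7. In whole nerve 18, 27, 22 and 26 were. With the replicate numbers as a block, 29 genes were called in Schwann cells and 24 in whole nerve at day 3, and Jund, without a call, was at 0.045 in Schwann cells. Nr4a1 (-0.64, adjusted p = 0.00434) and Zfp36 (0.28, adjusted p = 0.047), without a call in nerve at day 3, were called under the block, and the calls in Schwann cells of Csrnp1 at day 3 (-0.33, adjusted p = 0.063) and Fosl2 at day 5 (0.51, adjusted p = 0.0572) were lost. Tested for at least a 2-fold difference between the tissues, 35 genes were called uncrushed, 28 at day 3, 31 at day 5 and 30 at day 7, against 36, 34, 37 and 36 without that demand. The share of all genes passing the 2-fold test is not given, so these counts show only which calls of the 37 were kept. Calls that held under every alternative were 26 of 30 in Schwann cells at day 3, 28 of 32 at day 5 and 29 of 30 at day 7, 12 of 21, 9 of 14 and 10 of 15 in whole nerve, and 20 of 24, 23 of 27 and 18 of 23 for the difference of injury effects.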
